A study of Mus musculus with 11 samples.

Results

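The genes described here are 8 components of Gp130 JAK-STAT signaling: the signal transducer Stat3, the feedback inhibitors Socs2 and Socs3, the receptor chains Il6st (gp130), Lifr, Cntfr and Osmr, and the ligand Lif. They are 8 of 48440 genes in the count table of cultured neural progenitor cells (NPCs) and 8 of 32285 in each single-cell RNA sequencing (scRNA-seq) matrix. They were chosen by name with the difference between wild-type (WT) and Syncrip conditional knockout (cKO) samples already known, so their values are given as a description and not as a test. The study asked what the RNA-binding protein Syncrip does in mouse neocortical progenitors. NPCs were grown from E14.5 C57BL/6 mice with EGF and bFGF, as 3 WT and 3 cKO cultures, and dorsal telencephalon of 1 WT and 1 cKO embryo of the same litter at E14.5 was profiled by scRNA-seq. In the cKO, Cre recombinase removes early Syncrip exons that lie between loxP sites. The study gives the name cKO to Syncrip fl/fl mice with Emx1-Cre, which acts in the dorsal pallium, and also mentions cKO mice made with Nestin-Cre. The sample labels say cKO without naming the Cre line, and they do not say whether the WT samples carry loxP sites or Cre. The libraries made by immunoprecipitation of Syncrip-bound RNA were not analysed here.

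Gp130 is the shared chain of the receptors for the interleukin-6 family of cytokines. LIF is bound by LIFR with gp130, CNTF by CNTFR with LIFR and gp130, and oncostatin M by OSMR with gp130. Janus kinases on these chains phosphorylate STAT3, which enters the nucleus and switches on target genes, among them Socs3, whose product binds gp130 and shuts the receptor off. Socs2 belongs to the same family and is known mainly as a brake on growth hormone signaling. In the embryonic cortex this pathway is known for holding progenitors in an undifferentiated state and, later, for turning them toward astrocytes.

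STAT dimers bind the palindrome TTCNNNGAA, which reads the same on both strands. Among the 7 of the 8 genes that matched RefSeq promoter windows (build GRCm38.p6, from 250 bases before to 50 bases after each annotated start), only Socs3 had this element, and Stat3, Il6st, Lifr, Cntfr, Osmr and Lif had none in these windows. The element is shown because Socs3 is the gene that differed most between genotypes. It lies 154 to 146 bases before the RefSeq start of Socs3 and is in capitals in the following stretch of the minus strand, chr11:117969502-117969530.
Socs3: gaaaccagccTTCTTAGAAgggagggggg
Of 27025 genes with a window of this length, 9.55% had the element. In the count table the Socs3 span is longer (chr11:117966079-117970047) and holds this stretch, and the sequence before that start was not searched. The match describes these letters and is no evidence of binding.

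The cultures held 16962903 to 22708400 counts and the 2 embryos 100172392 and 111313526 UMIs (unique molecular identifiers, 1 per captured transcript). Levels are given in CPM, on the usual scale of this unit. In cultures these are counts divided by the library total after TMM scaling. In tissue they are UMIs divided by the UMI total of the cell class or cluster. Syncrip itself was at 79.2 ± 1.09 CPM in WT versus 86.8 ± 4.69 in cKO cultures (SD, n = 3 each), and at 313 and 323 CPM in WT and cKO apical progenitors. These counts cover the whole gene or its 3′ end and not the deleted exons alone, so they do not check the deletion. The paper reports its own checks in RNA and protein, among them RNA-seq tracks of cKO neurospheres without the deleted exons. Progenitor markers were present in all cultures (summed over 10 markers, 6410 to 7690 CPM in WT versus 6490 to 7410 in cKO). Of the 9 that were tested, Nes, Fabp7 and Hes5 rose and Pax6, Sox9, Slc1a3, Ddah1 and Aldoc fell, while Sox2, whose span lies wholly inside another gene, was listed at 0. Every one of the 984 protein-coding genes placed in this way was listed at 0 in all 6 cultures, compared with 24.1% of the 8822 that overlap no other gene. Of the 8 genes, only Stat3 shares any of its span with another gene (0.132%, with Stat5a). Counts specific to the Y chromosome marked WT replicates 1 and 2 and cKO replicate 1.

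Socs3 was by far the gene of the 8 that separated the cultures. Socs3 (chr11:117966079-117970047, mm10, minus strand) was at 3.6, 4.9 and 5.31 CPM in the 3 WT cultures and at 59.9, 81 and 71.6 CPM in the 3 cKO cultures. These levels rest on 80 to 119 reads per WT library and 1221 to 1486 per cKO library. All cKO cultures were above all WT cultures, with means of 4.6 ± 0.891 and 70.9 ± 10.6 CPM (SD, n = 3 each), a 15.4-fold difference. The log2 fold change was 3.94 with a standard error of 0.15, the 14th highest of the 14432 genes that were tested. In the cultures with Y-linked counts, the cKO culture was at 59.9 CPM beside 3.6 and 4.9 in WT. In those without, the cKO cultures were at 81 and 71.6 CPM beside 5.31 in WT.

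Socs2 (chr10:95385362-95417180) went the other way. It was at 16.7, 15.8 and 20.1 CPM in WT and at 9.66, 6.47 and 5.93 CPM in cKO cultures. The groups did not overlap, and the means were 17.5 ± 2.25 and 7.35 ± 2.02 CPM (SD, n = 3 each), a log2 fold change of -1.25 (SE 0.18). Thus the 2 SOCS genes differed in opposite directions in the same libraries. In tissue, as given below, Socs2 was higher in neurons than in progenitors. The 8 migrating neuron markers summed to 415 to 450 CPM in WT versus 322 to 333 in cKO cultures. Of 7 tested, 4 fell and none rose, beside 19.8% lower and 19.7% higher over all genes. The 10 immature neuron markers summed to 433 to 458 CPM in WT versus 525 to 543 in cKO. Of 8 tested, 3 rose and 3 fell. The part of neurons in the Socs2 difference was not tested.

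Stat3 (chr11:100885098-100939540), the transcription factor of the pathway, hardly differed. Its levels were 165, 176 and 182 CPM in WT versus 188, 192 and 189 CPM in cKO cultures. The groups did not overlap, but the log2 fold change was only 0.12 (SE 0.07).

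Among the receptor chains, Il6st, Cntfr and Osmr were lower in cKO cultures and Lifr was at about the same level. Il6st (chr13:112464070-112510086), the chain shared by the receptors for LIF, CNTF and oncostatin M, was at 183, 179 and 188 CPM in WT versus 123, 121 and 128 CPM in cKO cultures. This is a log2 fold change of -0.57 (SE 0.07), with means of 184 ± 4.4 and 124 ± 3.63 CPM (SD, n = 3 each). Cntfr (chr4:41657498-41697089), the CNTF-binding chain, was at 163, 198 and 183 CPM in WT versus 136, 148 and 126 CPM in cKO, a log2 fold change of -0.41 (SE 0.09). Neither gene had a cKO culture as high as the lowest WT culture. Lifr (chr15:7129559-7197489), the LIF-binding chain, was at 122, 107 and 105 CPM in WT versus 119, 115 and 111 CPM in cKO. Its groups overlapped fully, with a log2 fold change of 0.04 (SE 0.08).

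Osmr (chr15:6813577-6874969), the oncostatin M chain, lies 255 kb from Lifr on the opposite strand with 1 listed gene between them. It was at 6.66, 6.13 and 9.73 CPM in WT versus 4.22, 4.14 and 3.91 CPM in cKO cultures, for a log2 fold change of -0.88 (SE 0.20). WT replicate 3 stood above the other WT cultures, and without it the log2 fold change was -0.65. In bulk cultures, fewer cells of a type and less RNA per cell cannot be told apart. The 8 endothelial markers summed to 2.56 to 3.31 CPM in WT versus 2.17 to 2.45 in cKO cultures, with Cldn5 and Cdh5 at 0 in all of them. The 7 pericyte markers summed to 144 to 187 CPM in WT versus 153 to 170 in cKO, most of it Cspg4, which did not pass (119 and 134 CPM). Of the 3 that were tested, Pdgfrb fell from 44.7 ± 4.13 to 27 ± 5.5 CPM (adjusted p = 0.000681, edgeR; SD, n = 3 each) and Rgs5 from 1 to 0.0321 CPM (adjusted p = 0.000189, edgeR), in the direction of Osmr. The other 4 pericyte markers could not be tested. Kcnj8 was at 0 in all cultures, and the WT means of Abcc9, Vtn and Higd1b were 0.06, 0.15 and 0.0186 CPM. The 8 meningeal markers summed to 3.45 to 4.11 CPM in WT and 6.77 to 7.63 CPM in cKO. Most of it was Foxc1, with means of 3.2 and 6.37 CPM, and the other 7 were too low to test. The part of these markers' cells in the Osmr difference was not tested.

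Lif (chr11:4257557-4272514), the cytokine, was near the lower limit of detection. It had 11, 13 and 9 reads in the WT libraries and 7, 19 and 24 in the cKO libraries, that is 0.402 to 0.724 CPM in WT versus 0.343 to 1.16 CPM in cKO. The groups overlapped, and the log2 fold change of 0.69 had a standard error of 0.48.

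**Figure D1:**
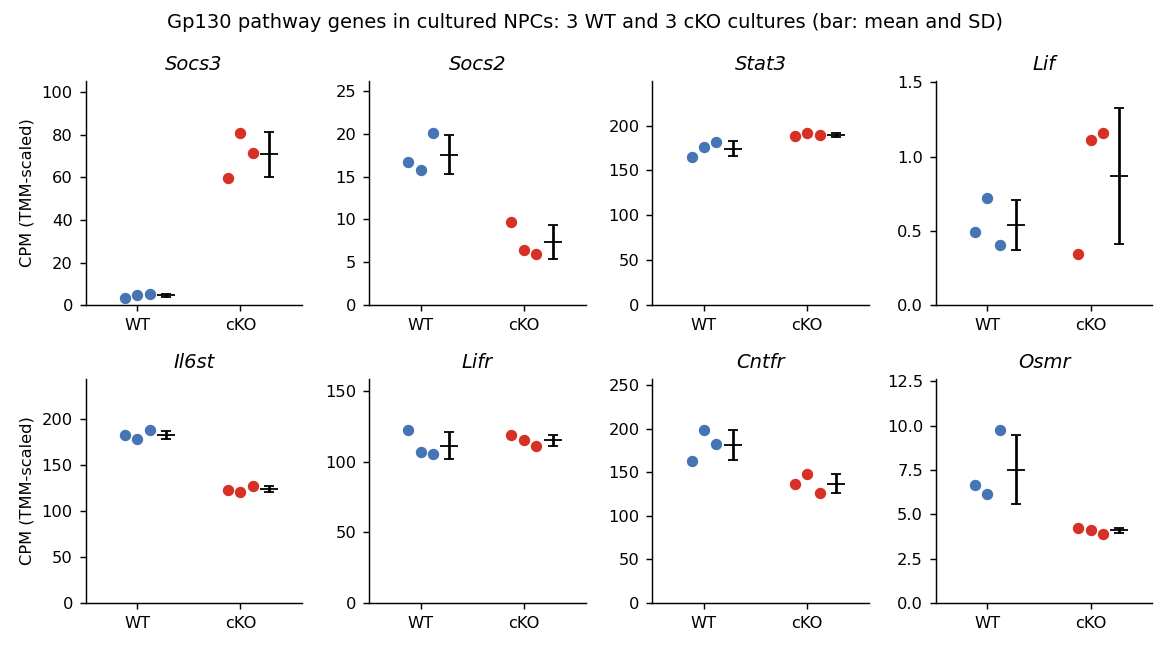
Level of each of the 8 genes in every culture, in CPM after TMM scaling (vertical axes from 0, 1 scale per gene), with 3 WT cultures in blue and 3 cKO cultures in red; the black bar is the mean and SD. Socs3 lies between 3.6 and 5.31 CPM in WT and between 59.9 and 81 CPM in cKO, while Socs2, Il6st, Cntfr and Osmr lie lower in every cKO culture and Lifr and Lif overlap.

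By edgeR's quasi-likelihood test over all genes (adjusted p below 0.05), 1 of the 8 genes was called higher (Socs3) and 4 lower (Socs2, Il6st, Cntfr, Osmr), and Stat3, Lifr and Lif were not called. Over all genes tested, 39.5% were called, 19.7% as higher and 19.8% as lower in cKO. WT and cKO cultures did not overlap for 6 of the 8 genes and for 50.4% of all genes. Since the 8 were selected on this contrast, nothing is read from their counts.

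The other genes of the pathway were listed by role, 104 in all, and 74 could be tested. Of these, 20 were called higher and 16 lower in cKO cultures, beside 19.7% and 19.8% over all genes. The median log2 fold change of the 74 was -0.01, beside 0 over all genes.

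Expression of the other ligands was low. Of 10, 4 were tested and 3 of them were lower in cKO, beside 19.8% lower over all genes. Cardiotrophin-1 (Ctf1) fell from 5.48 ± 0.456 to 3.74 ± 0.0565 CPM (adjusted p = 0.0252, edgeR). Ctf2 fell from 1.05 ± 0.359 to 0.438 ± 0.216 CPM (adjusted p = 0.0465, edgeR; SD, n = 3 each for both). Both have a mean over the 6 cultures below the 5 CPM set for named genes and were named after their values were seen. Leaving out 1 culture ended the Ctf1 call in 5 of 6 cases and the Ctf2 call in 4. Clcf1 was at 0.992 and 1 CPM. Il6, Osm and Il27 were listed at 0 in all cultures, Il11 and Ebi3 were too low to test, and Cntf was listed at 0 but lies wholly inside Zfp91.

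Of the 8 other receptor chains, the 4 that were tested (Il6ra, Il11ra1, Il12rb2, Il31ra) did not pass, and Il27ra, Il12rb1, Csf3r and Lepr were too low to test. Il6ra, which binds interleukin-6 itself, was at only 0.645 CPM in WT versus 0.711 CPM in cKO. Of the Janus kinases, Jak1, the main kinase on gp130, fell from 221 ± 10.1 to 166 ± 10.1 CPM (log2 fold change -0.41, adjusted p = 0.000955, edgeR; SD, n = 3 each). Jak2 was at 140 ± 18.1 and 164 ± 13.1 CPM and Jak3 at 2.07 and 1.69 CPM, and neither passed. Tyk2 was listed at 0 and lies wholly inside another gene. Of the 6 other STATs, Stat2, a partner in the interferon response, rose by 0.35 on the log2 scale (adjusted p = 0.0247, edgeR), a call that leaving out 1 culture ended in 4 of 6 cases. Stat5a and Stat5b did not pass, and Stat4 and Stat6 could not be tested. In all, 3 kinases and 4 of these STATs were tested, beside 19.7% higher and 19.8% lower over all genes.

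Of 17 inhibitors, 14 were tested, 3 fell and none rose, beside 19.8% lower and 19.7% higher over all genes. Ptpn11 (SHP2), a phosphatase that binds gp130 at the same site as SOCS3, fell from 296 ± 10.5 to 230 ± 1.93 CPM (adjusted p = 0.00142, edgeR; SD, n = 3 each). The receptor phosphatase Ptprt fell by 0.36 on the log2 scale (adjusted p = 0.0023, edgeR). Socs7 fell by 0.24 (adjusted p = 0.0211, edgeR), a call that was lost without WT replicate 3, cKO replicate 1 or cKO replicate 3. Socs4, Socs5 and Socs6 did not pass (log2 fold changes of -0.16, -0.06 and -0.13), nor did Socs1 (0.67, at 0.918 and 1.48 CPM). Cish, Ptpn6 and Ptprc could not be tested. Socs3 was thus the only SOCS gene called higher among the 7 that were tested.

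Genes known as STAT3 targets did not move together. Of 18, 14 were tested, and 5 rose and 5 fell, beside 19.7% higher and 19.8% lower over all genes. Junb and Fos, which encode AP-1 subunits, rose most: Junb from 5.35 ± 1.67 to 89.1 ± 16.1 CPM (log2 fold change 4.05, adjusted p = 3.24e-08, edgeR) and Fos from 65.3 ± 13.9 to 657 ± 44.9 CPM (3.33, adjusted p = 7.31e-10, edgeR; SD, n = 3 each for both). Ier3, Pim1 and Ccnd1 also rose (2.18, 0.84 and 0.40), Pim1 and Ccnd1 with calls that depended on single cultures (for Pim1 WT replicate 2 or cKO replicate 3, for Ccnd1 cKO replicate 3). Bcl6 (-0.73), a transcriptional repressor, and Tnfrsf1a (-0.56), a receptor for tumor necrosis factor, fell, as did Myc (-0.50), Pim3 (-0.49) and Bcl2l1 (-0.43). Mcl1, Cebpb, Cebpd and Hif1a did not pass, and Bcl3, Icam1, Timp1 and Fgl2 could not be tested, of which Timp1 and Fgl2 lie wholly inside other genes.

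Of 8 STAT3 targets linked to astrocytes, 6 were tested, 2 fell and none rose, beside 19.8% lower and 19.7% higher over all genes. Aqp4, the water channel of astrocyte endfeet, fell from 274 ± 39.7 to 65.8 ± 4.82 CPM (log2 fold change -2.06, adjusted p = 1.09e-08, edgeR; SD, n = 3 each), and Ndrg2 fell by 0.67 on the log2 scale (adjusted p = 5.73e-05, edgeR). S100b, Id3, Smad1 and Sbno2 did not pass, Steap4 was listed at 0 and Gfap lies wholly inside another gene. A list of 8 astrocyte markers shares Gfap, Aqp4 and S100b with these targets. Of its 7 tested members, 5 fell and none rose, beside the same 19.8% and 19.7% over all genes. Besides Aqp4 these were Gja1 (-1.63 on the log2 scale), Agt (-1.94), Slc1a2 (-0.39) and Aldh1l1 (-0.36). The sum over the list was 4710 to 5240 CPM in WT versus 3060 to 3410 CPM in cKO cultures. The part of astrocytes in the fall of Aqp4 and Ndrg2 was not tested.

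Of 6 genes of the growth hormone axis, on which SOCS2 acts, 4 were tested. Of these, 2 rose and none fell, beside 19.7% higher and 19.8% lower over all genes. The growth hormone receptor Ghr and the insulin receptor Insr rose by 0.30 and 0.31 on the log2 scale (adjusted p = 0.0332 and 0.00382, edgeR). The Ghr call was lost on leaving out 1 culture in 5 of 6 cases and with DESeq2 or no count filter. Igf1r and Epor did not pass, and Igf1 and Prlr could not be tested. Of 15 interferon response genes, 9 were tested, and 1 rose and 2 fell, beside 19.7% higher and 19.8% lower over all genes. Irf1 rose from 3.87 ± 0.67 to 8.99 ± 1.25 CPM (adjusted p = 0.000193, edgeR; SD, n = 3 each). Ifngr2 fell by 0.36 on the log2 scale, a call lost without WT replicate 2 or cKO replicate 3, and Ifit3, at 1.59 CPM in WT versus 0.784 CPM in cKO, fell by 1.02, a call lost in 4 of 6 cases. The other 6 did not pass.

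Of 12 immediate early genes, 11 rose in cKO cultures and 1 (Fosl2) did not pass, beside 19.7% higher over all genes. The median log2 fold change of the 12 was 2.93. Egr1, a zinc finger factor induced within minutes by growth factors, rose from 57.9 ± 1.84 to 1050 ± 45.2 CPM (SD, n = 3 each). Egr3, Egr2 and Fosb rose by 7.77, 5.38 and 4.50 on the log2 scale (adjusted p = 3.86e-09, 1.72e-10 and 6.55e-11, edgeR).

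**Figure D2:**
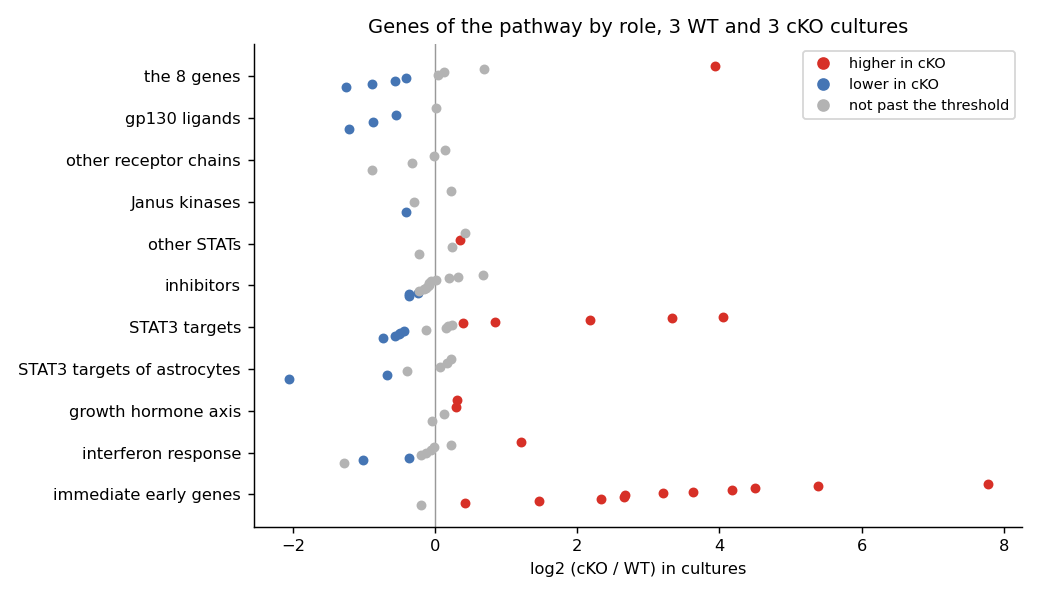
Log2 fold change (cKO over WT, 3 cultures each, horizontal axis) of every tested gene of the pathway, 1 row per role, the 8 genes in the top row and 1 point per gene; red and blue mark genes called higher or lower in cKO and grey those not past the threshold. The immediate early genes lie to the right of 0 except Fosl2, while the other receptor chains, kinases and inhibitors lie between -0.89 and 0.67.

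The genes whose levels followed Socs3 most closely over the 6 cultures were Scarb1, Ppp4r4, Litaf, Hes1 and Dusp1 (Pearson's r of log2 CPM from 0.9985 to 0.9990 among 10321 genes). Hes1, a repressor downstream of Notch, was at 4.91 CPM in WT versus 35.1 CPM in cKO, and Dusp1, a phosphatase that switches off MAP kinases, at 11.8 and 59.2 CPM. The 6 points form 2 genotype groups, so such an r describes mainly the difference between them.

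In tissue, 8214 WT and 9560 cKO cells were kept and grouped into 26 clusters, of which 24 could be named from marker genes. Apical progenitors (APs) were 943 WT and 1280 cKO cells, intermediate progenitors 690 and 771, migrating neurons 1854 and 2081, immature neurons 2518 and 2604, and ganglionic eminence cells 1182 and 1631. There were few Cajal-Retzius cells (63 and 111), meningeal fibroblasts (103 and 123), endothelial cells (24 and 33), pericytes (27 and 18), microglia (17 and 16) and red blood cells (54 and 56). The unnamed clusters held 488 and 251 WT and 616 and 220 cKO cells. With 1 embryo per genotype there is no test, and the intervals are 95% exact Poisson or binomial intervals that cover counting error only. Emx1-Cre acts in the dorsal pallium and not in ganglionic eminence, vascular or immune cells, so with that line those classes would keep Syncrip. Differences there could then not be credited to loss of Syncrip in those cells. The deletion was not checked by class. The libraries shared 22 cell barcodes.

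Socs3 in APs did not show the difference seen in culture. It rested on 70 UMIs in WT APs, that is 5.59 CPM (4.36 to 7.06), and on 126 UMIs in those of the cKO, 6.96 CPM (5.80 to 8.29). The log2 ratio was 0.32, with an interval from -0.12 to 0.76 that includes 0 and ends well below the 3.94 of the cultures; the difference between culture and tissue was not tested. The ratio was similar in the AP cluster led by Tnc and Hes5 (0.42) and in that led by mitotic genes such as Aurkb and Plk1 (0.33) and was -0.12 in the third, a cluster of low depth. With a filter that asked for 1000 genes and allowed 5% mitochondrial UMIs it was 0.06. In the other classes of the cortical lineage the log2 ratio was -0.29 in intermediate progenitors, -0.12 in migrating neurons and 0.11 in immature neurons, all with intervals that include 0. In ganglionic eminence cells it was 0.38 (-0.03 to 0.80). Of the single clusters, 2 had an interval above 0: the ganglionic eminence cluster led by Gsx2 and Helt, with 8 UMIs in WT and 28 in cKO (1.52, 0.35 to 2.87), and an immature neuron cluster led by Cdh12 and Inhba, with 99 and 114 UMIs (0.56, 0.16 to 0.96). In the other 4 ganglionic eminence clusters the ratio was from -0.11 to 0.87, with intervals that include 0.

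In the WT embryo Socs3 was highest in microglia (17.3 CPM, 6.34 to 37.6) and meningeal fibroblasts (15 CPM, 5.50 to 32.6), each on 6 UMIs. Among the large classes it was highest in intermediate progenitors (11.1 CPM, 9.10 to 13.3) and migrating neurons (10.0 CPM, 8.75 to 11.4), whose intervals overlap. Ganglionic eminence cells (7.54 CPM, 5.97 to 9.39), immature neurons (5.86 CPM, 5.13 to 6.67) and APs followed, and neighbours in that order overlap too. Migrating neurons and intermediate progenitors did not overlap with APs. Red blood cells had no Socs3 UMI, which at their depth allows up to 13.4 CPM and so does not set a background. Over 25 clusters of the WT embryo, Pex19, Kctd5, Gtf2b, Mapk6 and Ptpn2 had the pattern most like that of Socs3 (r from 0.818 to 0.847 among 11479 genes). The clusters share 1 library and differ in depth. Ptpn2 encodes a phosphatase that acts on Janus kinases and STATs.

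Socs2 was lower in cKO APs, at 41.9 CPM (38.4 to 45.7) in WT versus 33.7 CPM (31.1 to 36.5) in cKO. The log2 ratio of -0.32 (-0.49 to -0.14) had the direction of the cultures at a smaller size, and it was -0.33 in both of the deeper AP clusters. The ratio was -0.18 (-0.27 to -0.09) in migrating neurons, 0.06 (-0.13 to 0.24) in intermediate progenitors and -0.02 (-0.13 to 0.10) in ganglionic eminence cells. The migrating neurons include a cluster led by Tafa1 and Tfap2d with 120 WT and 459 cKO cells, in which the log2 ratio was 0.09 (-0.23 to 0.42). In immature neurons it was 0.07 (0.01 to 0.13), but -0.04 with coarser clusters. Socs2 was more a gene of neurons than of progenitors: in WT it was at 107 CPM (104 to 110) in immature neurons, 103 CPM in Cajal-Retzius cells, 98.0 CPM in ganglionic eminence cells and 92.8 CPM in migrating neurons, all above the 41.9 CPM of APs and 43.2 CPM of intermediate progenitors. Its highest cluster was one of ganglionic eminence cells led by Isl1 and Ebf1, with 244 CPM in WT versus 232 CPM in cKO.

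Stat3 was at the same level in APs of both embryos, 21.2 CPM (18.7 to 23.9) in WT versus 21.4 CPM (19.3 to 23.6) in cKO, with a log2 ratio of 0.01 (-0.21 to 0.25). The AP clusters differed from each other: the ratio was -0.24 (-0.51 to 0.04) in the Tnc and Hes5 cluster and 0.53 (0.07 to 0.99) in the mitotic cluster. Across classes Stat3 was highest in microglia (178 CPM in WT, 147 CPM in cKO), endothelial cells (111 and 90.1 CPM) and pericytes (82.1 and 61.2 CPM). In WT the Tnc and Hes5 cluster was at 34.4 CPM (29.8 to 39.5) and the mitotic cluster at 10.3 CPM (7.88 to 13.2). The first overlaps with intermediate progenitors (32.9 CPM, 29.4 to 36.7), and levels were lower in migrating neurons (14.0 CPM, 12.5 to 15.6) and in immature neurons (5.68 CPM, 4.96 to 6.48), with no overlap between these classes.

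The shared receptor chain Il6st was lower in cKO APs, as in the cultures. It was at 17.3 CPM (15 to 19.7) in WT versus 13.3 CPM (11.7 to 15.1) in cKO APs, for a log2 ratio of -0.37 (-0.65 to -0.10). The ratio was -0.60 in the mitotic and -0.21 in the Tnc and Hes5 cluster, and without called doublets it was -0.28, with an interval that reached 0. In no other class of the cortical lineage did the interval exclude 0. Il6st marked APs within that lineage, since intermediate progenitors (6.98 CPM), migrating neurons (3.59 CPM) and immature neurons (4.11 CPM) of the WT embryo were all lower without overlap. Outside the lineage it was highest in meningeal fibroblasts (115 CPM in WT, 90.5 CPM in cKO), microglia (51.8 and 85.4 CPM) and endothelial cells (39.5 and 17.5 CPM). The endothelial log2 ratio of -1.18 (-2.03 to -0.38) rests on 24 and 33 cells. With coarser clusters it was -0.34. That cluster held 127 WT and 156 cKO cells and had the meningeal marker Dcn among its leading genes. Its ratio is thus not a value of endothelial cells alone.

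Cntfr was the most abundant of the 8 genes in APs. It was at 65.7 CPM (61.3 to 70.3) in WT versus 62.1 CPM (58.6 to 65.9) in cKO APs, and the log2 ratio of -0.08 (-0.21 to 0.05) did not show the lower level of the cKO cultures. It was also high in Cajal-Retzius cells (59.3 CPM in WT) and ganglionic eminence cells (45.1 CPM) and near the limit of detection in endothelial cells (5 UMIs) and microglia (0 UMIs). In immature neurons the log2 ratio was 0.34 (0.16 to 0.51), from 11.9 to 15.1 CPM.

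Lifr, which did not differ in culture, was lower in APs and higher in ganglionic eminence cells of the cKO embryo. With Emx1-Cre, the ganglionic eminence cells would keep Syncrip. In APs it was at 10.1 CPM (8.46 to 12.1) in WT versus 6.57 CPM (5.45 to 7.87) in cKO, a log2 ratio of -0.63 (-1.0 to -0.25), and with the stricter filter on genes and mitochondrial UMIs it was -0.36 with an interval up to 0.05. In ganglionic eminence cells it was at 4.96 CPM (3.71 to 6.51) and 7.46 CPM (6.10 to 9.04), a log2 ratio of 0.59 (0.10 to 1.10). The clusters of this class were uneven: the ratio was 1.12 (0.28 to 2.03, on 16 and 48 UMIs) in the one led by Sst and Nxph1, between -0.45 and 1.17 in the other 4, and the intervals of those 4 include 0. Cajal-Retzius cells, the reelin-secreting neurons of the cortical surface, had the highest level (87.8 CPM in WT, 73.5 CPM in cKO), above endothelial cells (43.6 and 31.2 CPM). In the cortical lineage of the WT embryo, immature neurons (16.1 CPM) were above APs, and APs above migrating neurons (4.77 CPM) and intermediate progenitors (4.09 CPM).

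Osmr was found in vascular and meningeal cells rather than in progenitors. Of 57 UMIs in the WT embryo, 50 were in endothelial cells, 3 in pericytes and 2 in meningeal fibroblasts; of 38 in the cKO embryo, 26, 5 and 4 were. Endothelial cells were at 41.1 CPM (30.5 to 54.2) in WT versus 23.9 CPM (15.6 to 35.0) in cKO, a log2 ratio of -0.78 (-1.53 to -0.07) over 24 and 33 cells. WT APs had no Osmr UMI among 12518200, which allows up to 0.240 CPM, and cKO APs had 2. In the WT cultures, in contrast, Osmr was at 6.13 to 9.73 CPM by another assay. Lif was not detected in the WT embryo and had 1 UMI in the cKO embryo, so no class could be compared.

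**Figure D3:**
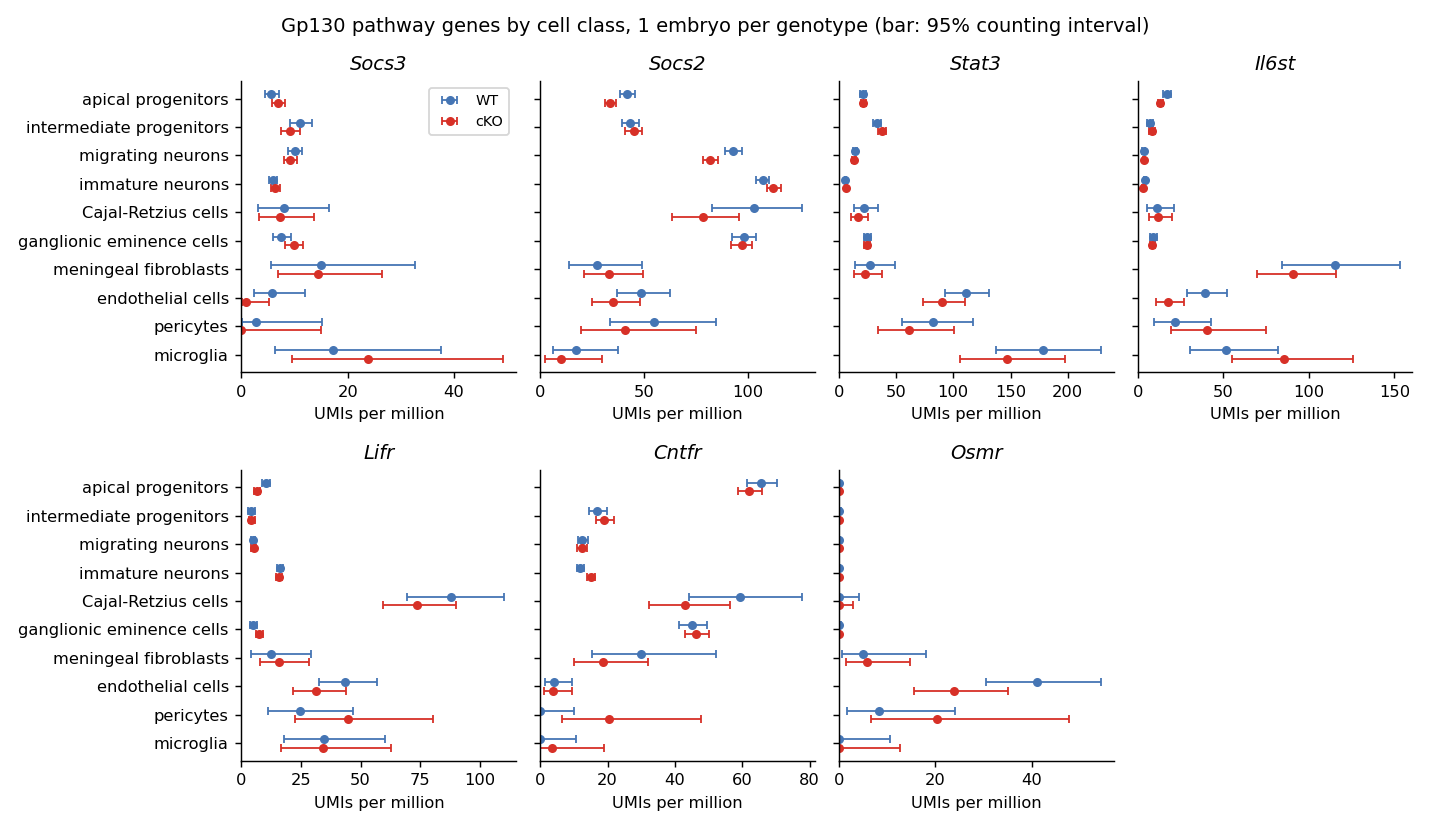
Level of 7 of the 8 genes (Lif was not detected in WT) in 10 named cell classes, in CPM of UMIs on linear axes, for the WT embryo in blue and the cKO embryo in red; bars are 95% counting intervals. Osmr stands at 41.1 CPM in WT endothelial cells and near 0 in neural cells, Lifr peaks in Cajal-Retzius cells, Cntfr is at 65.7 CPM in WT apical progenitors, and the Socs3 intervals of WT and cKO overlap in every class shown.

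**Figure D4:**
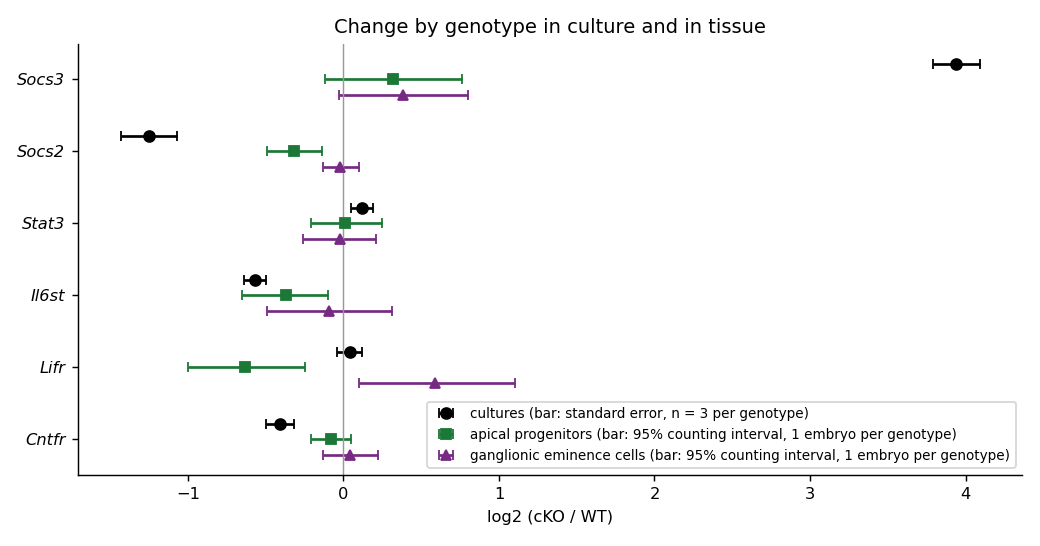
Log2 ratio of cKO to WT (horizontal axis) for the 6 genes with enough UMIs, in cultures (black, standard error, 3 per genotype), apical progenitors (green) and ganglionic eminence cells (purple), both of these with 95% counting intervals from 1 embryo per genotype. Socs3 is at 3.94 in cultures and 0.32 in apical progenitors, Il6st is at -0.57 and -0.37, and Lifr is at 0.04 in cultures, -0.63 in apical progenitors and 0.59 in ganglionic eminence cells.

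The other genes of the pathway in APs are given as values only. Jak1, lower in cKO cultures, was at 34.9 CPM in WT APs and had a log2 ratio of -0.22 (-0.40 to -0.03). Ptpn11 had a log2 ratio of -0.14 (-0.27 to -0.01). Tyk2 and Cntf, listed at 0 in the cultures, had 54 and 11 UMIs in WT APs, and 79 and 18 UMIs in the cKO. Il6 and Osm had none in either. Fos and Junb, listed above as STAT3 targets, and Egr1 did not show the rise seen in culture. Fos was at 63.6 CPM in WT versus 31.0 CPM in cKO APs (log2 ratio -1.03, -1.19 to -0.88), Egr1 at 85.3 and 58.7 CPM and Junb at 4.55 and 2.93 CPM. Of the immediate early list, values in APs are given only for Egr1 here and for Fosb and Egr3 below. Aqp4, with 15 UMIs in APs of each embryo, was too low to compare.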

How the data were processed

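RNA-seq (paired-end, mm10) was made from 6 cultures and 10x 3′ scRNA-seq from 2 embryos. The authors deposited raw counts per gene; their reads were filtered, aligned with HISAT2 and tested with DESeq2, per the labels and methods. The counting program and its strand setting are not given in the sources used. All 305 protein-coding genes inside a gene of the opposite strand, with no exon shared, were listed at 0 in all cultures. For scRNA-seq the authors deposited UMI counts per cell (Cell Ranger 7.0.0, per the file headers).

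Cultures were compared with edgeR 4.0.16 (TMM, filterByExpr, robust quasi-likelihood test, Benjamini-Hochberg over 14432 genes, threshold 0.05, R 4.3.3); CPM are TMM-scaled. The labels do not say that the cultures came from separate animals, so p-values measure the spread between these samples. On simulated counts for this comparison (14432 genes), 92 of 100 genes changed by 1 on the log2 scale and 100 of 100 changed by 2 were recovered, with 16 false calls. Alternatives were RLE and upper-quartile factors, no filter or at least 1 CPM in all cultures, DESeq2 1.42.0, limma-voom 3.58.1, the replicate number as a block, a term for Y-linked counts, and leaving out each culture.

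Cells in which 200 genes or more were found and no more than 10% of UMIs were mitochondrial were clustered with Seurat 5.3.0 (2000 variable genes without the 8 genes and their pathway, 30 components, resolution 0.8). Doublets were called with Scrublet (scanpy 1.11.5; 284 WT and 447 cKO cells) and kept. A cluster was named by the class with the highest mean standardized marker level (at least 0.5), given 3 markers raised 1.5-fold and no other class with more markers among its 10 leading genes; these limits were set after the clusters were seen. Summed UMIs per class were divided by class totals. Alternatives were resolutions 0.4 and 1.2, a stricter filter (1000 genes, 5% mitochondrial), no called doublets, and scaling by the median ratio.

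Genes named were all 8 members and, in each list, those past the threshold with a mean of at least 5 CPM (the 4 with the largest change) and those the test could not take. The other pathway genes were added after their values were seen, to account for each list. Genes that a list counts but the text does not name include some that are not reported here. For Socs3, the 5 genes of highest correlation were named (CPM plus 0.5 before log2 in cultures), predicted genes left out. The members and lists were chosen with earlier results of these data known. Promoter letters are from RefSeq windows of build GRCm38.p6, the same assembly as mm10.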

Additional observations from a re-analysis of the deposited data

Results flagged for a closer look

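Lifr had a log2 ratio of -0.63 in apical progenitors and 0.59 in ganglionic eminence cells. These are opposite directions with counting intervals on either side of 0 in 1 embryo per genotype. The difference between the classes was not tested, and with Emx1-Cre the ganglionic eminence cells would keep Syncrip. In the ganglionic eminence class the ratio was 1.12 in the cluster led by Sst and Nxph1 and -0.45 and -0.22 in 2 others. Several genes differed in one direction in all cultures and in the other in apical progenitors, also untested. Those higher in cKO cultures and lower in cKO apical progenitors were Fos (log2 ratio in apical progenitors -1.03), Fosb (-1.07), Egr1 (-0.54), Egr3 (-2.53, on 8 and 2 UMIs), Junb (-0.64) and Insr (-0.17). Ptprt was lower in cKO cultures and had a log2 ratio of 0.34 in apical progenitors.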

How the results depend on the processing

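Every alternative in the cultures called the same number of the 8 genes, 1 higher and 4 lower, and gave Socs3 a log2 fold change from 3.78 to 4.07. Over all genes, 2068 to 3189 were called higher and 2040 to 3275 lower, and of the pathway genes 18 to 25 higher and 11 to 18 lower. Deviations of same-numbered cultures correlated at 0.30, -0.03 and 0.08, and those of differently numbered cultures at -0.35 to 0.32. With 3 cultures per genotype this cannot settle whether replicate numbers pair the samples. With the replicate number as a block, 6405 genes were called instead of 5701, and no call of the 8 genes changed. The median log2 fold change over all genes was 0.002, and it was -0.002 with RLE factors, 0 with upper-quartile factors and -0.011 without a count filter. In apical progenitors, the log2 ratios ranged over the alternatives from 0.06 to 0.32 for Socs3, -0.36 to -0.21 for Socs2, -0.37 to -0.28 for Il6st, -0.66 to -0.36 for Lifr, -0.12 to -0.04 for Cntfr and -0.09 to 0.18 for Stat3. At resolution 0.4, Socs2 was at -0.29 in migrating neurons, -0.19 in intermediate progenitors and -0.04 (a reversal) in immature neurons, and Stat3 at 0.31 in migrating neurons. Il6st was at -0.34 in the endothelial class, which at that resolution also had the meningeal marker Dcn among its leading genes. At resolution 1.2, Socs3 was at 0.39 in immature neurons. With the stricter cell filter (1000 genes, 5% mitochondrial), Stat3 was at 0.14 in migrating neurons and Socs2 at -0.26 in intermediate progenitors and -0.04 (a reversal) in immature neurons. These settings change which cells a class holds. Neurons led by Inhba and Cdh12 were unnamed at resolution 0.4 and with the stricter filter. At resolution 1.2 a mitotic cluster led by Tuba1c and Cdc20 was named oligodendrocyte lineage, with the same mean marker level (1.62) for apical progenitors. In the main setting a cluster led by Hba-x and Mt3 counted as apical progenitors. With the stricter filter one led by Hba-x and Hbb-y counted as red blood cells. The cause of the shifts was not tested. Single-cell ratios rest on 1 embryo per genotype, and genes under 10 UMIs in a class were not followed.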
